A study of Mus musculus with 81 samples.

Results

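The T-cell receptor β (TCRβ) repertoire of EG7.OVA tumors was compared between mice given a full dose of mRBC-OVA-4-1BBL-IL-12 (1e9 cells, 5 tumors) and mice given a low dose of the same product (2.5e8 cells, 5 tumors). These 10 tumor libraries, chosen by their labelled tissue, product and dose, are 10 of the 81 libraries of the series. EG7.OVA is an OVA-expressing line made from the mouse T-cell lymphoma EL4 and was grown under the skin of Pep Boy mice (B6.SJL-Ptprca Pepcb/BoyJ, CD45.1; females according to the methods, age not given in the sources used here). mRBC-OVA-4-1BBL-IL-12 is a mouse red blood cell to which an OVA peptide bound to MHC class I, the costimulatory ligand 4-1BBL and the cytokine IL-12 were conjugated. Every mouse of both groups also received 1e6 naïve OT-1 cells, CD8+ T cells with a transgenic TCR for OVA, and was dosed on days 0 and 3. Tumors were taken on day 7, and genomic DNA came from a fixed part of each cell suspension. The 5 tumors of mice given 1e9 unmodified mouse red blood cells (mRBC-CTRL, with the same OT-1 transfer) and the day 7 blood of the same mice serve as reference values. Each tumor library is from a separate mouse. The transferred OT-1 cells came from donors whose T cells were isolated as CD8+ cells, so any other receptor they carried is counted with those of the host.

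A TCRβ chain is assembled in each developing T cell by joining 1 V, 1 D and 1 J segment, with bases trimmed and added at random (N insertions) at the joints. The joint encodes the third complementarity-determining region (CDR3), the part of the chain that mostly contacts the peptide in its MHC groove, and daughters of a T cell inherit the same rearrangement. A rearrangement therefore marks a clone, and its templates, the rearranged DNA molecules estimated by the assay, count the cells of that clone in the DNA analysed. In a tumor of T-cell origin the malignant cells bring a rearrangement of their own. Endogenous clones are here all in-frame rearrangements other than those with the OT-1 CDR3, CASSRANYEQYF, and the lymphoma CDR3, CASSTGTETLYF.

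The most abundant rearrangements of these CDR3s are shown because they define the endogenous set. Each is given as the 87 sequenced bases, 5′ to 3′, with the CDR3 codons within the read in capitals. The read stops before the last CDR3 codon.
OT-1, TCRBV12-01 and TCRBJ02-07: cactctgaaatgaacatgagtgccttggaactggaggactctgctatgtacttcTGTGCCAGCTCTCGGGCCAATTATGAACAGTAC
Lymphoma, TCRBV15-01 and TCRBJ02-03: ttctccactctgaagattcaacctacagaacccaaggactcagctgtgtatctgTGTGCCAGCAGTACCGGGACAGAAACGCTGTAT
The lymphoma CDR3 was present in 15 of 15 tumor libraries, at 95 to 61149 templates, and in 3 of 28 blood libraries of the experiment, at no more than 1 template. No endogenous rearrangement (0) lay within 1 substitution of either sequence in any tumor. This search compared bases position by position and did not cover shifted or shortened forms.

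The 10 tumor libraries held 6546 to 26014 productive (in-frame) templates at 1e9 and 3436 to 52361 at 2.5e8. The smallest was mouse 4 at 2.5e8 (3436), and the smallest endogenous total was that of mouse 2 at 1e9 (832). Comparisons between doses used 2-sided exact permutation tests over every division of the 10 mice into 5 and 5, which cannot give a p below 0.00794, with Benjamini-Hochberg adjustment over the 13 comparisons that give a value per mouse. None of the 13 had an adjusted p under 0.05 with all 10 mice, and the unadjusted and adjusted values are given together.

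Fewer endogenous templates were counted in tumors at the full dose. At 1e9 the tumors of mice 1 to 5 held 2974, 832, 4037, 4241 and 3873 endogenous templates. At 2.5e8 they held 13790, 8963, 12615, 2589 and 6727. In 4 of the tumors at 2.5e8 the count lay above every tumor at 1e9, and mouse 4 at 2.5e8 lay among the full-dose tumors. The geometric mean was 2.78-fold lower at 1e9, a log2 difference of -1.47 (SE 0.62; exact permutation test, p = 0.0397, adjusted p = 0.103). Without mouse 4 at 2.5e8 the log2 difference was -1.87 (exact permutation test, adjusted p = 0.0413), and without mouse 2 at 1e9 it was -1.04 (exact permutation test, adjusted p = 0.206). With any mouse other than mouse 4 at 2.5e8 left out, the adjusted p was 0.120 to 0.248. The 5 mRBC-CTRL tumors held 11484 to 23605. The number of distinct endogenous rearrangements was 380 to 1014 at 1e9 and 394 to 2479 at 2.5e8. The amount of DNA put into each reaction is not given in the sources used here, so fewer endogenous T cells and less tumor DNA cannot be told apart in these totals, whereas ratios within a library do not depend on the amount.

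OT-1 templates covered overlapping ranges at both doses. They were 10239, 5619, 8316, 20399 and 14300 in mice 1 to 5 at 1e9, and 7969, 2884, 14029, 586 and 20050 at 2.5e8. The log2 difference was 1.04 (SE 0.97; exact permutation test, p = 0.325, adjusted p = 0.464), smaller than the spread of the low-dose mice (SD 2.05 on the log2 scale, n = 5), and it was 0.25 without mouse 4 at 2.5e8. The mRBC-CTRL tumors held 3733 to 7486 OT-1 templates.

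The ratio of OT-1 to endogenous templates, which takes the lymphoma cells out of the denominator, was higher at the full dose. It was 3.44, 6.75, 2.06, 4.81 and 3.69 in mice 1 to 5 at 1e9, so OT-1 outnumbered all other T-cell receptors in each of these tumors. At 2.5e8 it was 0.578, 0.322, 1.11, 0.226 and 2.98, and OT-1 was the minority in mice 1, 2 and 4. The groups overlapped through mouse 5 at 2.5e8, whose ratio of 2.98 exceeded that of mouse 3 at 1e9. The mean ratio was 5.72-fold higher at 1e9 on the log2 scale (log2 difference 2.51, SE 0.72; exact permutation test, p = 0.0159, adjusted p = 0.0774). Leaving out mouse 4 at 2.5e8 lowered the difference to 2.12 and left the unadjusted p at 0.0159 (exact permutation test). The adjusted p was then 0.0413, because other comparisons of the family had lower p without that mouse, and it was 0.0688 to 0.155 with any other mouse left out. The ratio in mRBC-CTRL tumors was 0.241 to 0.652, and 3 of the 5 low-dose tumors lay in or below that range.

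**Figure D1:**
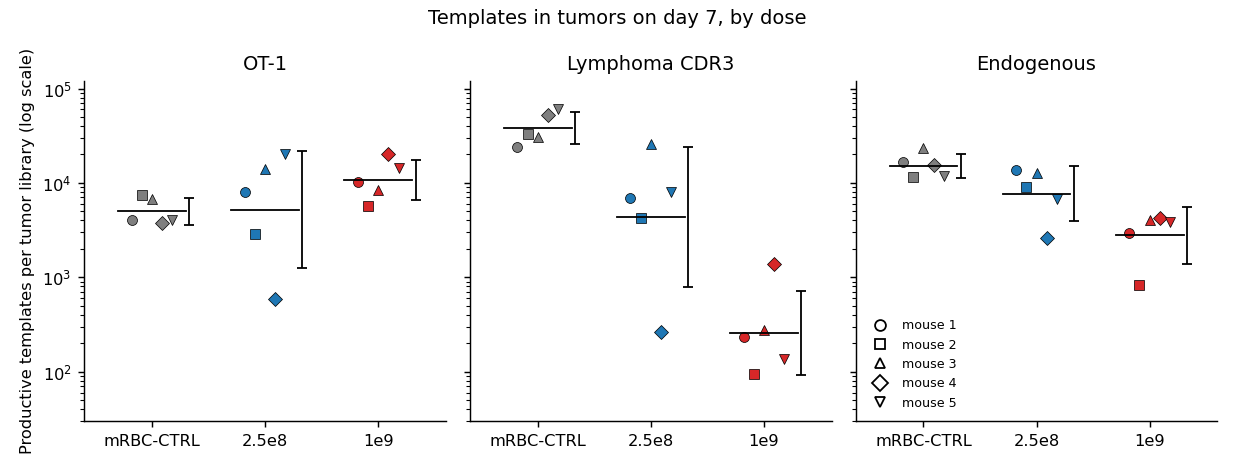
OT-1, lymphoma and endogenous templates in each tumor library (log axis), by group. Each symbol is a mouse, horizontal lines are geometric means and bars are 1 SD of log2 templates (n = 5). Endogenous templates at 1e9 lie between 832 and 4241, below 4 of the 5 tumors at 2.5e8, whereas OT-1 templates overlap.

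Templates of the lymphoma CDR3 were lower at the full dose. They numbered 230, 95, 273, 1374 and 135 in mice 1 to 5 at 1e9. At 2.5e8 they numbered 6884, 4236, 25717, 261 and 7975, against 24101 to 61149 in mRBC-CTRL tumors. The difference of means was 17.0-fold, -4.09 on the log2 scale (SE 1.29; exact permutation test, p = 0.0238, adjusted p = 0.0774), and without mouse 4 at 2.5e8, whose 261 templates lay within the full-dose range, it was -5.10 (exact permutation test, adjusted p = 0.0413). Endogenous templates per lymphoma template were 12.9, 8.76, 14.8, 3.09 and 28.7 at 1e9. The same ratio was 2.00, 2.12, 0.491, 9.92 and 0.844 at 2.5e8 and 0.193 to 0.778 in mRBC-CTRL tumors. Thus, relative to lymphoma templates, endogenous templates were 6.11-fold higher at 1e9, while their absolute number was lower. The log2 difference in this ratio was 2.61 (SE 0.91, exact permutation test, p = 0.0238, adjusted p = 0.0774). Without mouse 4 at 2.5e8 it was 3.23 (exact permutation test, adjusted p = 0.0413). With any other single mouse left out, the adjusted p was 0.103 to 0.181 for this ratio and for lymphoma templates (exact permutation test).

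The ratio of OT-1 to endogenous templates was also available in day 7 blood of the same mice. In blood it was 0.929 to 3.89 at 1e9 and 0.0322 to 0.0834 at 2.5e8, a log2 difference of 5.15 between the group means, about which no test was made. The ratio in tumor exceeded that in blood by 1.10 ± 0.97 (SD, n = 5) on the log2 scale at 1e9 and by 3.73 ± 0.93 (SD, n = 5) at 2.5e8. The mice of the 2 doses did not overlap in this difference (-2.63, SE 0.60; exact permutation test, p = 0.00794, the smallest possible, adjusted p = 0.0774; -2.89 and adjusted p = 0.0413 without mouse 4 at 2.5e8). With any single mouse other than mouse 4 at 2.5e8 left out, the adjusted p was 0.0688 to 0.120 (exact permutation test). Mouse 5 at 1e9 was the one mouse with a lower ratio in tumor (3.69) than in blood (3.89). In the 4 mRBC-CTRL mice with a day 7 blood library the tumor exceeded blood by 3.46 ± 0.34 (SD, n = 4).

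**Figure D2:**
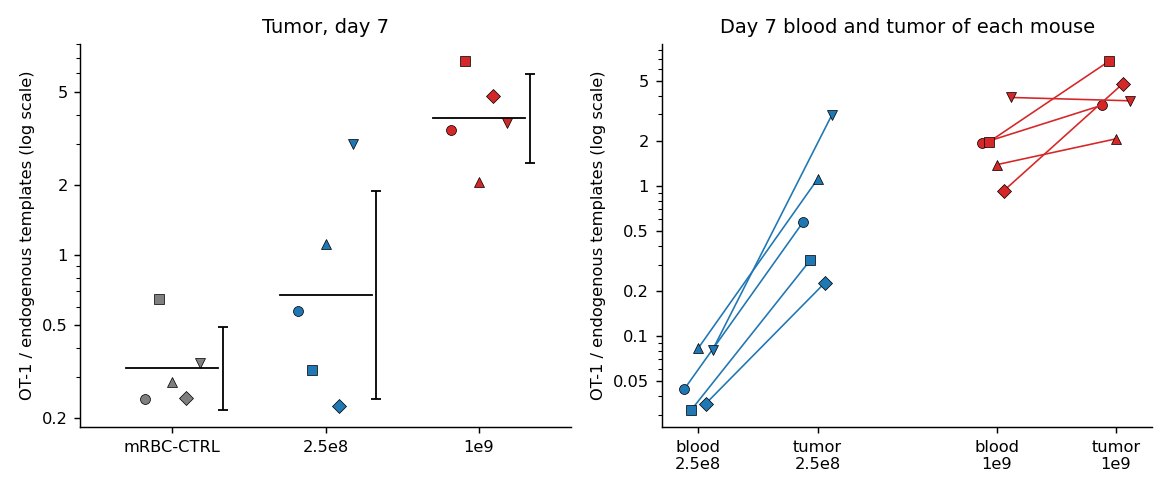
Ratio of OT-1 to endogenous templates on log axes. Left, tumor libraries by group, with geometric means and bars of 1 SD of the log2 ratio (n = 5). Right, day 7 blood and tumor of each treated mouse joined by a line. All 5 low-dose lines climb from 0.0834 or less in blood, and the full-dose lines start at 0.929 or above.

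The diversity of endogenous clones at equal depth overlapped between doses. In a draw of 832 endogenous templates, the expected number of distinct rearrangements was 315, 380, 215, 315 and 309 in mice 1 to 5 at 1e9. It was 309, 183, 296, 186 and 396 at 2.5e8, so that the lowest and the highest tumors were both low-dose tumors. The means were 307 ± 59.0 and 274 ± 90.3 rearrangements (SD, n = 5), a difference of 32.8 (SE 48.2; exact permutation test, p = 0.452, adjusted p = 0.535), and mRBC-CTRL tumors had 341 ± 50.2 (SD, n = 5). After leaving out rearrangements with 1 template the difference was -7.02, in a smaller draw set by the totals that then remained. Both the draw and the clones counted changed there, so this is not the same measure as the 32.8 in 832 templates. Rearrangements with 1 template made up 60.3% to 64.4% of the endogenous rearrangements at 1e9 and 58.9% to 66.9% at 2.5e8.

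**Figure D3:**
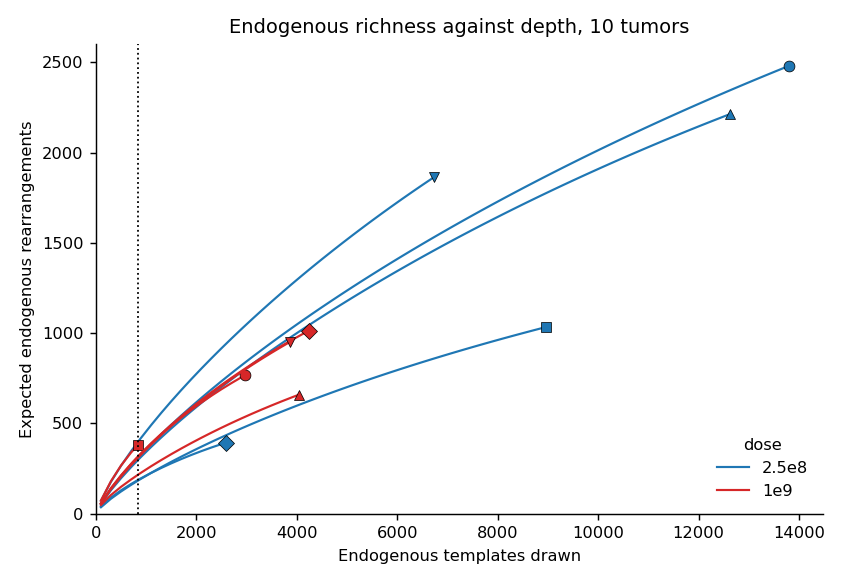
Expected number of distinct endogenous rearrangements against the number of endogenous templates drawn, for each of the 10 tumors. Symbols mark the full library of each mouse (circle, square, up triangle, diamond and down triangle for mice 1 to 5), and the dotted line marks 832 templates. The curves of the 2 doses interleave, and the higher totals at 2.5e8 go with deeper libraries.

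Clone sizes were uneven in every tumor. The largest endogenous clone took 13.4%, 7.81%, 11.9%, 17.4% and 29.2% of endogenous templates in mice 1 to 5 at 1e9 and 25.4%, 36.3%, 16.8%, 29.2% and 9.90% at 2.5e8. The half-width of the 95% Wilson interval of these shares, which covers counting error only, was at most 1.83 percentage points. The means, 15.9% ± 8.17 and 23.5% ± 10.3 (SD, n = 5), were 7.57 percentage points apart (SE 5.90; exact permutation test, p = 0.254, adjusted p = 0.438). The 10 largest clones together held 31.1% to 52.9% of endogenous templates at 1e9 and 30.1% to 70.1% at 2.5e8, and 10 to 17 clones per tumor held more than 1%. Clonality, 1 minus the normalized Shannon entropy (0 for clones of equal size), was 0.261 ± 0.0843 at 1e9 and 0.360 ± 0.0982 at 2.5e8 (SD, n = 5; exact permutation test, p = 0.127, adjusted p = 0.275). Clonality depends on depth and was computed on full libraries, of 832 to 4241 endogenous templates at 1e9 and 2589 to 13790 at 2.5e8. The part of depth in its difference was not tested. The Simpson concentration, the chance that 2 templates drawn at random share a rearrangement, had a log2 difference of -0.67 (SE 0.71; exact permutation test, p = 0.357, adjusted p = 0.464). Single mice moved these differences by over 1.5 times. The difference in clonality was -0.0993 with all mice, -0.0634 without mouse 2 at 1e9 and -0.136 without mouse 5 at 2.5e8 (exact permutation test, p = 0.0159, adjusted p = 0.0688). The Simpson difference was -0.30 and -1.15 without the same mice, and the largest clone differed by -4.38 percentage points without mouse 2 at 2.5e8.

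The leading endogenous clone was a different rearrangement in each of the 10 tumors. At 1e9 the leading CDR3s were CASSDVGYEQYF (TCRBV13-03, 398 templates), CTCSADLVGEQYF (TCRBV01-01, 65), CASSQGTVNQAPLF (TCRBV02-01, 480), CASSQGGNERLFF (TCRBV05-01, 738) and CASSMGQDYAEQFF (TCRBV19-01, 1131) in mice 1 to 5. At 2.5e8 they were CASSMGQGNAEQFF (TCRBV19-01, 3506 templates) in mouse 1, a clone ending in GGDEQYF (TCRBV19-01, 3250) in mouse 2, a TCRBV29-01 and TCRBJ01-03 clone (2119) in mouse 3, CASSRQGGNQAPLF (TCRBV17-01, 755) in mouse 4 and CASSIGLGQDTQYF (TCRBV19-01, 666) in mouse 5. TCRBV19-01 thus gave the leading clone in 1 of 5 tumors at 1e9 and 3 of 5 at 2.5e8, and in none of the 5 mRBC-CTRL tumors. Among the 10 largest clones of each tumor the counts were closer. TCRBV19-01 gave 9 of 50 at 1e9, 8 of 50 at 2.5e8 and 6 of 50 in mRBC-CTRL tumors. The TCRBV19-01 leaders are shown because they share the V segment and a methionine or isoleucine followed by glycine after CASS, and the TCRBV05-01 and TCRBV17-01 leaders because they were the largest of the others by share at each dose.
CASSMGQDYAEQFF, 1e9 mouse 5: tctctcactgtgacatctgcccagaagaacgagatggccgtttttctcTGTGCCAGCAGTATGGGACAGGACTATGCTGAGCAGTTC
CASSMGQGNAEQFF, 2.5e8 mouse 1: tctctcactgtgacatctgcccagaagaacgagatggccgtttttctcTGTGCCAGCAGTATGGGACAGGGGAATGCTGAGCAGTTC
CDR3 ending in GGDEQYF, 2.5e8 mouse 2: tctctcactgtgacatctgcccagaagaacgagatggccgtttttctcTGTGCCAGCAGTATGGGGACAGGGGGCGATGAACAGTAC
The same CDR3, 1e9 mouse 5: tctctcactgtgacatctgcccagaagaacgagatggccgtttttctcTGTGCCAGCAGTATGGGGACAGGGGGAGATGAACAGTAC
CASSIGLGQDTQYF, 2.5e8 mouse 5: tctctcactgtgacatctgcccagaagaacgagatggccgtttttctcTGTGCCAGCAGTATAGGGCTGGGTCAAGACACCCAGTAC
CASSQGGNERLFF, 1e9 mouse 4: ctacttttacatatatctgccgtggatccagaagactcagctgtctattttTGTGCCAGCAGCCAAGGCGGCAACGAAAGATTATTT
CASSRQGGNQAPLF, 2.5e8 mouse 4: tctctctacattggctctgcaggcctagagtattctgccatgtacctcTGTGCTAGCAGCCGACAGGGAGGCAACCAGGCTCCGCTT
Capitals again mark the CDR3 codons. The CDR3 that leads in mouse 2 at 2.5e8, with 3270 templates over all its rearrangements, also had 139 templates in mouse 5 at 1e9, where it was made by another nucleotide rearrangement (135 templates). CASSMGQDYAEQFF carried 0 N insertions, and the other TCRBV19-01 leaders carried 1, 2 and 3 in the order of mice 1, 2 and 5 at 2.5e8. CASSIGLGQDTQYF had 670 templates in mouse 5, 17 in mouse 2 and 86 in mouse 3 at 2.5e8, 0 in all tumors at 1e9, and 46 and 65 in mRBC-CTRL mice 4 and 5.

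V segment use of endogenous templates had no segment past the threshold. A lone segment at the smallest possible p, 0.00794, could not pass it after adjustment over 25 segments. The test therefore could not show that V use was alike at the 2 doses. Of the 25 segments with at least 10 templates in the 10 tumors, 0 differed between doses at an adjusted p under 0.05 (0% of those tested), and 1 had an unadjusted p under 0.05. That segment was TCRBV02-01, at 7.03%, 8.92%, 14.2%, 7.57% and 2.84% of endogenous templates in mice 1 to 5 at 1e9 and 3.45%, 0.870%, 3.75%, 1.31% and 4.15% at 2.5e8 (means 8.11% ± 4.09 and 2.71% ± 1.50, SD, n = 5; exact permutation test, p = 0.0317, adjusted p = 0.595). With each rearrangement counted a single time, TCRBV02-01 stood at 4.35% at 1e9 and 4.32% at 2.5e8. TCRBV19-01 was the most used segment in templates at both doses, at 18.3% ± 14.4 at 1e9 and 23.6% ± 11.2 at 2.5e8 (SD, n = 5; exact permutation test, p = 0.540, adjusted p = 0.744), against 7.82% ± 6.74 in mRBC-CTRL tumors. It spanned 5.90% to 42.5% among the full-dose tumors and 14.4% to 38.8% among the low-dose tumors. Counted by rearrangement, TCRBV19-01 was at 7.67%, 7.62% and 6.81% at 1e9, 2.5e8 and mRBC-CTRL.

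Some of the other V segments were high in tumors whose leading clone uses them. TCRBV17-01 was at 32.1% in mouse 4 at 2.5e8, where its clone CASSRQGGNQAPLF led, and at 0.482% to 7.29% in the other 9 tumors. TCRBV29-01 was at 18.8% in mouse 3 at 2.5e8 and at 1.02% to 7.03% elsewhere. Among the 10 tumors TCRBV05-01 was highest in mouse 4 at 1e9 (20.6%), whose leader uses it, and was at 13.3% and 12.0% in mice 3 and 5 at 2.5e8, whose leaders do not. TCRBV13-02, TCRBV13-03, TCRBV03-01, TCRBV13-01 and TCRBV04-01 had mean shares of 4.20% to 8.26% at the 2 doses apart from TCRBV13-01 at 2.5e8 (3.71%), with adjusted p of 0.595 to 0.984 in the exact permutation tests. By rearrangement, 0 of 25 segments passed the threshold and 2 had an unadjusted p under 0.05. They were TCRBV03-01 (6.36% at 1e9 and 8.08% at 2.5e8; exact permutation test, p = 0.0238, adjusted p = 0.397) and TCRBV12-02.

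**Figure D4:**
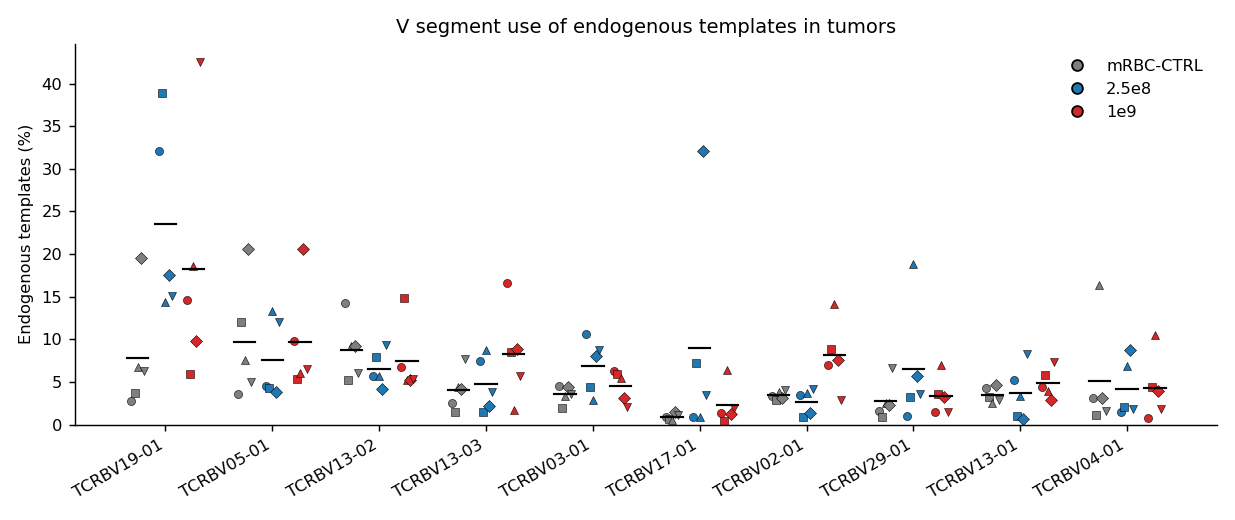
Percent of endogenous templates with each of the 10 most used V segments, per tumor and group. Symbols are mice as in the plot of templates and short lines are means (n = 5). TCRBV19-01 leads at both doses with a wide spread, from 5.90% to 42.5% at 1e9, and single high points mark tumors with 1 large clone.

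Within TCRBV19-01, the rearrangements whose CDR3 starts with CASSMG or CASSIG were noticed among the leaders and are described without a test. They held 0.672%, 1.56%, 12.8%, 0.189% and 37.6% of endogenous templates in mice 1 to 5 at 1e9. At 2.5e8 they held 29.0%, 37.5%, 1.37%, 15.2% and 10.6%, and in mRBC-CTRL tumors 0.360% to 3.90%. The group was picked from leaders of treated tumors, those of mouse 5 at 1e9 and mice 1, 2 and 5 at 2.5e8. Its contrast with mRBC-CTRL tumors was therefore partly set by that choice. The tumors of mouse 3 at 1e9 (12.8%) and mouse 4 at 2.5e8 (15.2%) had other leaders. The CASSMG or CASSIG rearrangements exceeded 10% in 2 of 5 tumors at 1e9, 4 of 5 at 2.5e8 and 0 of 5 mRBC-CTRL tumors. In each of those 6 tumors at least 1 was among the 10 largest clones, and so was 1 in mRBC-CTRL mouse 5 (3.90%). As a share of distinct rearrangements they were 0.592% to 2.20% at 1e9, 0.588% to 3.05% at 2.5e8 and 0.769% to 1.02% in mRBC-CTRL tumors. In day 7 blood of the treated mice they made up 0.714% to 16.6% of endogenous templates, and 0.946% to 1.02% in mRBC-CTRL blood. Other shared residues were present too, since CDR3s of this kind that end in GGDEQYF had 138 templates in mouse 5 at 1e9, 3260 in mouse 2 and 367 in mouse 4 at 2.5e8, and 71 in mouse 3 of the mRBC-CTRL group, and 0 in the remaining tumors.

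**Figure D5:**
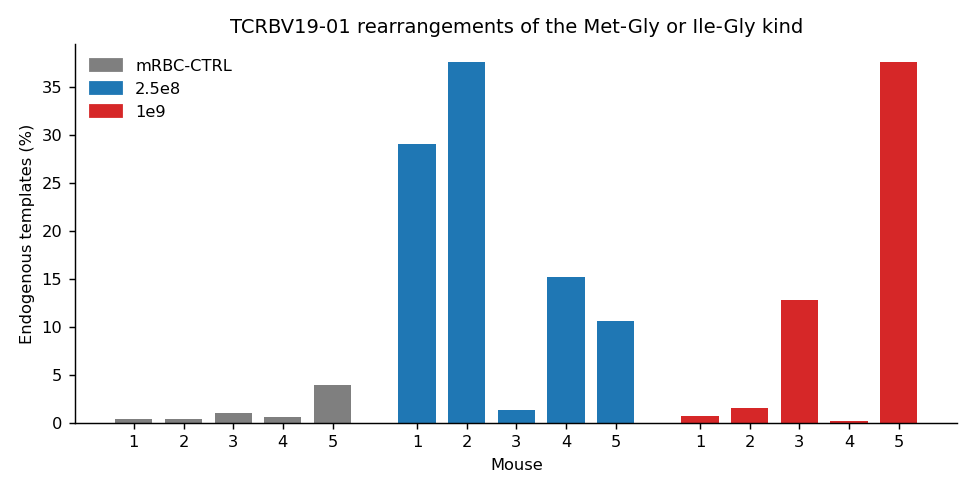
Percent of endogenous templates in TCRBV19-01 rearrangements whose CDR3 has methionine or isoleucine and then glycine after its first 4 residues, for each tumor. Bars start at 0 and each is 1 mouse. The share exceeds 10% in 4 low-dose and 2 full-dose tumors and reaches 3.90% in the mRBC-CTRL group. These rearrangements were picked from leaders of treated tumors, so the contrast with mRBC-CTRL was partly set by that choice.

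No J segment passed the threshold, which a lone J segment at the smallest possible p could not pass after adjustment over 12 segments. Of 12 J segments tested, 0 passed an adjusted p of 0.05 (0% of those tested) and 0 had an unadjusted p under 0.05. TCRBJ02-07, which OT-1 also uses, was the most used in endogenous templates, at 31.8% ± 10.2 at 1e9 and 34.8% ± 16.2 at 2.5e8 (SD, n = 5). TCRBJ02-01 stood at 17.1% ± 13.4 and 12.4% ± 10.2 (SD, n = 5), with 38.7% in mouse 5 at 1e9 and 30.6% in mouse 1 at 2.5e8, the tumors led by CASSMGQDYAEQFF and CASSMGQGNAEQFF. TCRBJ01-05 reached 36.0% in mouse 4 at 2.5e8, whose leader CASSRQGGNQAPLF carries it, against 1.02% to 13.4% in the other 9 treated tumors. In mRBC-CTRL tumors 1 and 2 it was at 35.1% and 36.7%. Counted by rearrangement, 1 of 12 had an unadjusted p under 0.05, TCRBJ01-03 (4.93% at 1e9 and 5.96% at 2.5e8; exact permutation test, p = 0.0317, adjusted p = 0.381).

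CDR3 length and junction of endogenous templates overlapped between doses. The mean CDR3 length over templates was 41.2 ± 0.741 bases at 1e9 and 41.7 ± 0.154 at 2.5e8 (SD, n = 5; exact permutation test, p = 0.270, adjusted p = 0.438). The mean number of N insertions was 3.10 ± 0.429 and 3.20 ± 0.519 bases (SD, n = 5), a difference of -0.10 (SE 0.301; exact permutation test, p = 0.746, adjusted p = 0.746). The difference in length was -0.406 bases, -0.0966 without mouse 1 at 1e9 and -0.576 without mouse 5 at 1e9 (exact permutation test, p = 0.0476, adjusted p = 0.120). The differences in length and N insertions changed sign without the largest clone of each tumor, to 0.0866 and 0.118 bases. In mouse 5 at 1e9, 33.1% of endogenous templates had no N insertion, against 2.33% to 11.1% in the other 9 tumors. The leading clone of that tumor, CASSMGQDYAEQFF, carried 0 N insertions and held 29.2% of its endogenous templates.

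In all tumors but those of mouse 2 at 1e9 and mouse 5 at 2.5e8, most endogenous templates belonged to clones also found in the mouse's day 7 blood. The share was 64.8%, 32.9%, 80.4%, 63.6% and 52.6% in mice 1 to 5 at 1e9 and 64.0%, 80.9%, 66.5%, 68.1% and 41.7% at 2.5e8. The means, 58.9% ± 17.5 and 64.2% ± 14.2 (SD, n = 5), differed by -5.39 percentage points (SE 10.1; exact permutation test, p = 0.603, adjusted p = 0.653), and by 1.09 without mouse 2 at 1e9. Blood libraries held 482 to 6579 endogenous templates at 1e9 and 2482 to 4900 at 2.5e8, and the part of that depth in the shares was not tested. Of the 10 largest endogenous clones of each tumor, 7 to 10 were found in the mouse's own day 7 blood. The leading clone was found there in all 10 mice, from 2 templates (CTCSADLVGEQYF) to 336 (the leader of mouse 2 at 2.5e8). Each tumor shared 33 to 131 endogenous rearrangements with its own blood and at most 12 with the day 7 blood of any other mouse.

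Few endogenous rearrangements were shared between tumors. The 45 pairs of treated tumors shared 0 to 13 rearrangements (median 2; 4 for pairs of the same dose and 2 for pairs of different doses), at most 3.42% of those of the smaller tumor. Shared counts were not adjusted for the rearrangements per tumor, which were 380 to 1014 at 1e9 and 394 to 2479 at 2.5e8. The 2 medians therefore do not compare sharing within and between doses. The shared rearrangements included leading clones. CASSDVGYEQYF, with 412 templates in mouse 1 at 1e9, had 3 in mouse 2. The TCRBV29-01 leader of mouse 3 at 2.5e8, with 2128, had 2 in mouse 4. Among CDR3s, the one in most tumors (8 of 10, at 1 or 2 templates each) was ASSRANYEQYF, the OT-1 CDR3 without its first residue. It was counted as endogenous, and whether it derives from OT-1 templates was not tested. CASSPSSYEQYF was found in 6 of 10 tumors, at 5 and 2 templates in mice 4 and 5 at 1e9, 14, 10, 74 and 9 in mice 1, 3, 4 and 5 at 2.5e8, and in 3 of 5 mRBC-CTRL tumors. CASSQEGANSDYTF, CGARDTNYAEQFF and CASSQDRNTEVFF were each found in 5 of 10, at no more than 15 templates. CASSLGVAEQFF and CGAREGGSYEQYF, named in an earlier analysis of these data, had 0 templates in all 10 tumors, which allows a share of productive templates of up to 0.00573% in the deepest of the 10 libraries and 0.0873% in the shallowest.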

How the data were processed

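According to the methods, the authors used the immunoSEQ assay (multiplex PCR of CDR3 DNA corrected for primer bias), merged and filtered its sequences. Per the file headers, the deposited values are a count of templates for each nucleotide rearrangement, and other columns hold CDR3 length and N insertions. The aligner, build and DNA input are not given in the sources used here. The deposited counts were whole numbers with totals that differ between libraries and were taken as not normalized. Rows in frame were kept, and out-of-frame or stop-containing rows entered only an alternative. The 2 CDR3s were removed by amino acid sequence. Totals, ratios and the Simpson index were compared as log2 values, and other measures as they stand. Richness was the hypergeometric expectation in 832 templates. Tests were 2-sided exact permutation tests over mice, adjusted by Benjamini-Hochberg over 13 values, 25 V and 12 J segments (at least 10 templates each). Floors for absent CDR3s were 3 templates of the productive total and, like intervals, cover counting error only.

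Named were OT-1, the lymphoma CDR3, the leading CDR3 of each tumor, the 5 found in most tumors, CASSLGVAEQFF and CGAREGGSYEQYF, the 10 most used V segments, the J segments and any segment past the threshold; TCRBV12-02 and the CASSMG or CASSIG group were named after their values were seen. Members and lists were chosen with earlier results of these data known. Alternatives were ranks, a linear scale, dropping rearrangements of 1 template or the largest clone, CDR3 clones, other draws and leaving out mice. Added after seeing the data were a draw of 2589 templates without mouse 2 at 1e9, lengths with each rearrangement counted a single time, and leaving out rearrangements of at most 1% of a larger one with the same last 30 bases. The tests were checked on simulated data. Tables were handled with pandas 2.3.3, tests with scipy 1.17.1 and numpy 2.4.6 (Python 3.11.15), and plots with matplotlib 3.10.9.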

Additional observations from a re-analysis of the deposited data

Results flagged for a closer look

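The tumor of mouse 2 at 1e9 stood apart from the other 4 full-dose tumors in its endogenous templates (9.70 on the log2 scale, the nearest tumor at 11.5) and in its endogenous clonality (0.117, the nearest at 0.266). It also had the fewest productive (6546) and endogenous (832) templates of its group, and clonality depends on depth. Of 26 groups examined for such gaps, 2 exceeded the 95% limit, where chance gives about 1.3. The 2 doses also differed in how far the OT-1 to endogenous ratio of the tumor exceeded that of day 7 blood, by -2.63 on the log2 scale (exact permutation test, p = 0.00794, the smallest possible; adjusted p = 0.0774, and 0.0413 to 0.120 with single mice left out).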

How the results depend on the processing

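Directions and calls were kept in 246 of the 259 recomputed values. Some of these could not change. Leaving out rearrangements 1 substitution from OT-1 or lymphoma removed 0, and the smallest of all 15 tumors gave the same draw of 832. The replicate block keeps each mean difference and cannot give a p below 0.0625 in its sign-flip test. Leaving out mouse 4 at 2.5e8, the shallowest tumor library, took 5 results past an adjusted p of 0.05, each at 0.0413. With any other mouse left out none of the 13 passed it, and the adjusted p of these 5 reached 0.248 for endogenous templates, 0.155 for the OT-1 to endogenous ratio, 0.181 for lymphoma templates and for the endogenous to lymphoma ratio, and 0.120 for tumor against blood. With single mice left out, the log2 difference of endogenous templates was -1.87 to -1.04, of the OT-1 to endogenous ratio 2.12 to 3.05, of lymphoma templates -5.10 to -3.44, of the endogenous to lymphoma ratio 2.15 to 3.23, and of tumor against blood -2.95 to -2.26. N insertions ranged from -0.24 to 0.0765 bases and templates shared with blood from -11.0 to 1.09 percentage points, both through 0. Richness turned to -7.02 rearrangements without rearrangements of 1 template, and was 9.97 to 63.3 with single mice left out, the lowest without mouse 2 at 2.5e8. CDR3 length and N insertions turned to 0.0866 and 0.118 bases without the largest clone, and to 0.0174 and 0.119 with each rearrangement counted a single time. For N insertions the latter had SE 0.0489 (exact permutation test, p = 0.0476, adjusted p = 0.124). The cause of these changes was not tested. With ranks, endogenous templates had p = 0.0952 in the exact permutation test.

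Mice of the 2 doses share numbers but are different animals. Deviations of V use from the group means correlated at -0.609 to 0.194 between same-numbered mice and at -0.513 to 0.782 between the others. V use depends on large clones of single mice, so these correlations cannot show whether the numbers mark a block. With the replicate block the differences were the same (OT-1 to endogenous ratio 2.51) and the exact sign-flip test gave p = 0.0625, the smallest possible, for that ratio and the tumor against blood difference, and 0.125 to 0.875 for the others. V and J counts were 0 in each setting run, where a lone segment at the smallest possible p could not pass the adjustment. Endogenous totals of 832 to 13790 templates limit the detection of rare clones. Rearrangements of 1 template make up most of the distinct endogenous rearrangements of each full library.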

Other observations

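Non-productive (out-of-frame or stop-containing) templates, which no comparison used by themselves, numbered 456 to 2457 at 1e9 and 551 to 6825 at 2.5e8. Per endogenous template they were 0.395 to 0.579 at 1e9, 0.213 to 0.495 at 2.5e8 and 0.277 to 0.623 in mRBC-CTRL tumors. Rearrangements of at most 1% of a larger rearrangement of the same tumor with the same last 30 bases made up 0.263% to 4.93% of the endogenous rearrangements of the 10 tumors, the highest in mouse 2 at 2.5e8.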
